A study of Homo sapiens with 24 samples.

Results

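Small guide RNAs of the nucleus were followed through polysome profiling of OVCAR-3 cells, with polysome RNA set against total RNA and treated against DMSO-treated cells. The members were all symbols of the array platform that begin with SNORD, SNORA or SCARNA followed by a digit, without antisense and host gene symbols. This gave 23 of 14884 named genes, each with 1 probeset. The platform table paired 0 probesets with a SNORD symbol and 0 with a SNORA symbol, so all 23 members were small Cajal body-specific RNAs (scaRNAs), a related class, and they are called scaRNAs here.

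ScaRNAs and small nucleolar RNAs are short non-coding RNAs, most of them released from introns, that are packed with a fixed set of core proteins into ribonucleoprotein particles. Box C/D RNAs guide 2'-O-methylation and box H/ACA RNAs guide pseudouridylation, and scaRNAs direct these marks to the spliceosomal small nuclear RNAs in Cajal bodies of the nucleus, while most small nucleolar RNAs act on ribosomal RNA. ScaRNAs encode no protein, so their RNA is set here against mRNA that is under translation. Of the 23, 5 are box C/D RNAs, 4 hold a box C/D and a box H/ACA domain (mixed domain) and 14 are box H/ACA RNAs. In RefSeq (GRCh38.p14) their lengths ran between 125 and 421 nucleotides.

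OVCAR-3 is an established line from a platinum-resistant high-grade serous ovarian cancer, and it is the only line in the series. Cells received 1 µM carboplatin with 0.25 µM INK128 (the combination), 0.25 µM INK128 alone, 1 µM carboplatin alone, or DMSO, the vehicle. INK128 inhibits both complexes of the kinase mTOR, and carboplatin forms DNA crosslinks. In the combination INK128 preceded carboplatin by 19 h, carboplatin was present for 5 h and the whole treatment took 24 h. Heavy polysome RNA (pooled gradient fractions) and total RNA of the lysates were hybridised to 24 Human Gene 2.0 ST arrays, 14 of polysome and 10 of total RNA. The study names 2 sets of independently performed experiments, fewer than the arrays of some groups, and the labels do not say which arrays came from separate cultures, so p-values may in part measure technical spread. With 2 to 4 arrays a group, precision is limited by their number.

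The labels of 4 arrays were contradicted by the study's own datasets. Replicate 1 of carboplatin polysome and of carboplatin total RNA, as labelled, held the values of total RNA columns of the combination, and those labelled combination total 1 and 2 held the values of a polysome and a total RNA column of carboplatin. All 4 were left out of the main fits. This left 3 polysome arrays of the combination with no total RNA beside them, 3 polysome and 2 total RNA arrays of INK128, 4 and 3 of carboplatin, and 3 and 2 of DMSO. All values are log2 signals, in which a difference of 1 is a doubling of the signal. The arrays were normalized to a common distribution, so a value is relative to the other RNA of its fraction, and fewer cells holding an RNA and less of it per cell cannot be told apart. The 9 measured markers of the serous line lay between the percentiles 56.2 (KRT8) and 99.6 (PAX8) of named genes by mean signal. The 3 measured markers of other cell types, DCN of fibroblasts and PECAM1 and VWF of endothelium, lay at 2.5, 26.7 and 33.3.

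Polysome RNA was lower than total RNA for 6 of 23 scaRNAs in INK128-treated cells, 8 in carboplatin-treated cells and 8 in DMSO-treated cells (limma, adjusted p under 0.05), and 0 were higher in any of the 3. Among all 14884 genes, 3.3% were lower with INK128, 3.58% with carboplatin and 0.961% with DMSO, and 4.07%, 9.33% and 0.712% were higher in the same order. At an unadjusted p under 0.05, 6, 12 and 13 scaRNAs were lower and 0 were higher. At that threshold 9.65%, 8.53% and 7.66% of all genes were lower, and 15%, 18.6% and 11.2% were higher. The median difference of the 23 was -0.20 with INK128, -0.40 with carboplatin and -0.71 with DMSO, against 0.06, 0.05 and 0.05 for all genes.

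SCARNA2, SCARNA7, SCARNA9, SCARNA9L and SCARNA16 were lower on polysomes under all 3 conditions, 5 more (SCARNA4, SCARNA10, SCARNA12, SCARNA17 and SCARNA18) under 1 or 2 of them, and 13 under none. Every polysome array lay below every total RNA array for 8 scaRNAs with INK128, 10 with carboplatin and 13 with DMSO. Among all genes this held for 17.7%, 7.38% and 13.5%. The reverse held with INK128 for 1 scaRNA, SCARNA11 (0.47, adjusted p = 0.249), and for 28.5% of all genes. With carboplatin and DMSO the reverse held for 0 scaRNAs, and for 16.5% and 22.9% of all genes. With all 24 arrays in the group of their label, 0 of 14884 genes and so 0 scaRNAs passed in any of the 3 comparisons. Fitted on the 2 DMSO groups alone, 1 scaRNA passed in place of 8, and 1 gene in all. The DMSO count also fell to 2 scaRNAs without DMSO total 1 or DMSO total 2 and to 4 without DMSO polysome 2 or DMSO polysome 3, and the INK128 count to 3 without INK128 polysome 1, 2 or 3.

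The 3 lowest differences under each condition were those of the box C/D RNAs SCARNA2, SCARNA7 and SCARNA9. All 5 were lower on polysomes with INK128, 4 with carboplatin and 4 with DMSO, with medians of -1.70, -1.32 and -1.61. SCARNA7, which guides methylation of the U1 small nuclear RNA, had the lowest polysome against total difference of all 14884 genes under each of the 3 conditions. Its signal with INK128 was 6.63, 7.30 and 6.68 on polysome arrays, against 9.63 and 8.51 on total RNA arrays. With carboplatin it was 5.97, 5.53, 5.55 and 5.73 on polysomes, against 8.26, 7.99 and 7.96 in total RNA. With DMSO it was 6.04, 5.90 and 5.75 on polysomes, against 8.55 and 9.43 in total RNA. The groups did not overlap under any condition, and the gap was wider than the spread in either fraction. On the linear scale SCARNA7 was 4.60-fold lower on polysomes with INK128 (log2 -2.20 ± 0.32, SE; adjusted p = 0.00299), 5.19-fold lower with carboplatin (-2.38 ± 0.27; adjusted p = 0.000398) and 8.52-fold lower with DMSO (-3.09 ± 0.32; adjusted p = 0.000103). It passed in each run that left out 1 array of the groups compared.

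**Figure D1:**
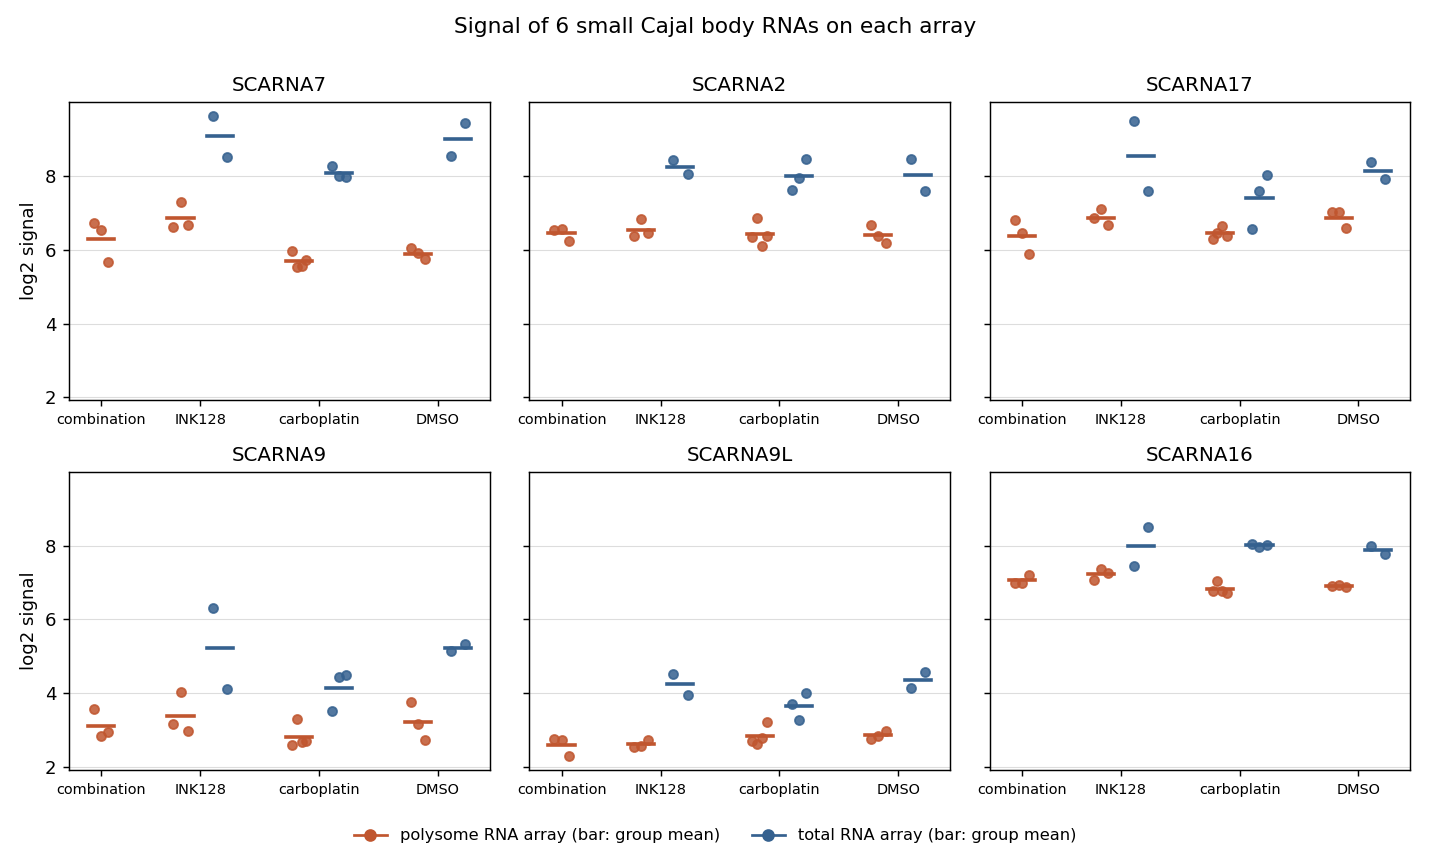
Log2 signal of 6 scaRNAs, 1 panel each, on the 20 arrays used. Points are arrays and bars are group means, with polysome RNA left of total RNA within each treatment and only polysome RNA for the combination. The 3 DMSO polysome arrays of SCARNA7 sit between 5.75 and 6.04, below both DMSO total RNA arrays at 8.55 and 9.43.

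SCARNA2 guides methylation of the U2 small nuclear RNA and is the member that lies in the span of no other RefSeq gene. Its signal was 6.37, 6.82 and 6.45 on INK128 polysomes, against 8.42 and 8.06 in total RNA. With DMSO it was 6.67, 6.36 and 6.20 on polysomes, against 8.47 and 7.58 in total RNA. Here too no polysome array reached a total RNA array, carboplatin included (6.34, 6.85, 6.11 and 6.38 against 7.62, 7.95 and 8.45). The differences were similar in size, at -1.70 ± 0.26 (SE) with INK128, -1.58 ± 0.22 with carboplatin and -1.61 ± 0.26 with DMSO, with adjusted p of 0.00477, 0.00136 and 0.00661. Leaving out DMSO total 1 took the DMSO call away (adjusted p = 0.176).

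SCARNA9, a further guide for U2, lies within CEP295 on chromosome 11, and SCARNA9L is a near copy of it within EIF1AX on chromosome X. Binding of one RNA to probes of the other was not tested, so the pair is not counted as separate evidence. SCARNA9 gave 3.16, 4.03 and 2.99 on INK128 polysomes, against 6.31 and 4.13 in total RNA. With DMSO it gave 3.77, 3.18 and 2.74 on polysomes, against 5.14 and 5.34 in total RNA. Groups stayed apart in both, but with INK128 only just, since INK128 total 2 lay close to INK128 polysome 2. Its differences were -1.83 ± 0.46 (SE, adjusted p = 0.0272) with INK128, -1.32 ± 0.39 (adjusted p = 0.0306) with carboplatin and -2.01 ± 0.46 (adjusted p = 0.0381) with DMSO. Without INK128 total 1 the INK128 difference was -0.73 (adjusted p = 0.308). The calls held in 1 of 5 runs that left out 1 array with INK128 (without INK128 total 2), 2 of 7 with carboplatin (without carboplatin total 2 or polysome 3) and 1 of 5 with DMSO (without DMSO polysome 1), with adjusted p of up to 0.308, 0.111 and 0.301.

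The signal of SCARNA9L was 2.54, 2.58 and 2.73 on INK128 polysomes, against 4.54 and 3.96 in total RNA. With DMSO it was 2.77, 2.86 and 2.98 on polysomes, against 4.13 and 4.59 in total RNA. No polysome array reached a total RNA array under any of the 3 conditions. The differences were -1.63 ± 0.22 (SE) with INK128, -0.83 ± 0.19 with carboplatin and -1.49 ± 0.22 with DMSO, with adjusted p of 0.00299, 0.00868 and 0.00392. Leaving out DMSO total 2 took the DMSO call away (adjusted p = 0.149). These polysome signals were near the bottom of the array's range, where a log2 difference understates a change.

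SCARNA17, a guide for the U4 and U12 small nuclear RNAs, passed with INK128 and missed the threshold under the other conditions. Its signal was 6.85, 7.09 and 6.67 on INK128 polysomes, against 9.49 and 7.60 in total RNA, a difference of -1.67 ± 0.41 (SE, adjusted p = 0.0245). It was -0.73 (adjusted p = 0.26) without INK128 total 1, and the call held in 1 of 5 such runs. With arrays blocked by their pairs in the study's datasets it also passed with carboplatin, at -0.96 (adjusted p = 0.00231). The DMSO values were 7.01, 7.03 and 6.58 on polysomes, against 8.37 and 7.92 in total RNA (-1.27 ± 0.41, adjusted p = 0.0988). With carboplatin the groups overlapped and the difference was -0.94 ± 0.35 (adjusted p = 0.0771).

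Among the 4 mixed-domain scaRNAs, which guide marks on the U5 small nuclear RNA, 2 passed in at least 1 condition. SCARNA10, within NCAPD2, had 5.70, 7.09 and 6.37 on INK128 polysomes, against 7.06 and 6.59 in total RNA, and these overlapped. With DMSO it had 5.78, 5.53 and 5.84 on polysomes, against 7.41 and 6.72 in total RNA. The differences were -0.44 ± 0.33 (SE, adjusted p = 0.447) with INK128, -1.05 ± 0.28 (adjusted p = 0.018) with carboplatin and -1.35 ± 0.33 (adjusted p = 0.0452) with DMSO. The DMSO call held in 1 of 5 runs that left out 1 array (without DMSO polysome 1), and the carboplatin call in 5 of 7. The latter was lost without carboplatin total 2 or the carboplatin total RNA array whose label holds a code beside its replicate number (adjusted p = 0.0585 and 0.0626). SCARNA12, within PHB2, differed by -0.39, -1.06 and -0.94 in the same order, with adjusted p of 0.362, 0.00502 and 0.0578. SCARNA5 and SCARNA6 share the host span of ATG16L1 on chromosome 2, and their differences lay between -0.11 and 0.30 over the 3 conditions.

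Of the 14 box H/ACA scaRNAs, 1 was lower on polysomes with INK128, 2 with carboplatin and 3 with DMSO, and the medians were -0.07, -0.26 and -0.30. Values were below 0 for 11, 11 and 13 of the 14. SCARNA16, a guide for U1, passed under all 3 conditions. Its signal was 7.07, 7.38 and 7.26 on INK128 polysomes, against 7.44 and 8.52 in total RNA, and 6.91, 6.94 and 6.87 on DMSO polysomes, against 7.997 and 7.776 in total RNA. The fractions did not overlap, and the DMSO polysome arrays lay closer to each other than to either DMSO total RNA array. The differences were -0.74 ± 0.21 (SE, adjusted p = 0.0377) with INK128, -1.19 ± 0.17 (adjusted p = 0.00154) with carboplatin and -0.98 ± 0.21 (adjusted p = 0.0297) with DMSO. Without INK128 total 2 the INK128 difference was -0.20 (adjusted p = 0.572). The carboplatin call held in all 7 runs that left out 1 array, but the INK128 call held only without INK128 total 1 and the DMSO call only without DMSO polysome 1 (1 of 5 runs each), and with arrays blocked by their pairs in the study's datasets the DMSO difference was -0.99 (adjusted p = 0.0791).

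SCARNA4, a guide for U2, and SCARNA18, a guide for U1, passed with DMSO and missed the threshold with INK128. SCARNA4 gave 6.23, 6.47 and 6.05 on INK128 polysomes, against 6.50 and 6.63 in total RNA, and 5.81, 6.04 and 6.04 on DMSO polysomes, against 7.03 and 7.21 in total RNA. SCARNA18 gave 3.41, 3.96 and 3.34 on INK128 polysomes, against 3.70 and 3.50 in total RNA, and 3.35, 3.51 and 3.26 on DMSO polysomes, against 4.58 and 4.84 in total RNA. In both genes total RNA values with INK128 lay below those with DMSO, while the polysome values of INK128 and DMSO lay close to each other, though every SCARNA4 value with INK128 was above those with DMSO. SCARNA4 differed by -0.31 ± 0.20 (SE, adjusted p = 0.349) with INK128, -1.06 ± 0.17 (adjusted p = 0.00182) with carboplatin and -1.16 ± 0.20 (adjusted p = 0.00897) with DMSO. For SCARNA18 the values were -0.03 ± 0.25 (adjusted p = 0.958), -0.58 ± 0.21 (adjusted p = 0.0754) and -1.34 ± 0.25 (adjusted p = 0.0165). The DMSO call of SCARNA4 was lost without DMSO total 1 or 2, and that of SCARNA18 also without DMSO polysome 2 or 3, with adjusted p of up to 0.194 and 0.25. With the 4 arrays in conflict moved and the datasets' pairs as the block, SCARNA18 with DMSO was at -1.41 (limma, adjusted p = 0.0791).

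**Figure D2:**
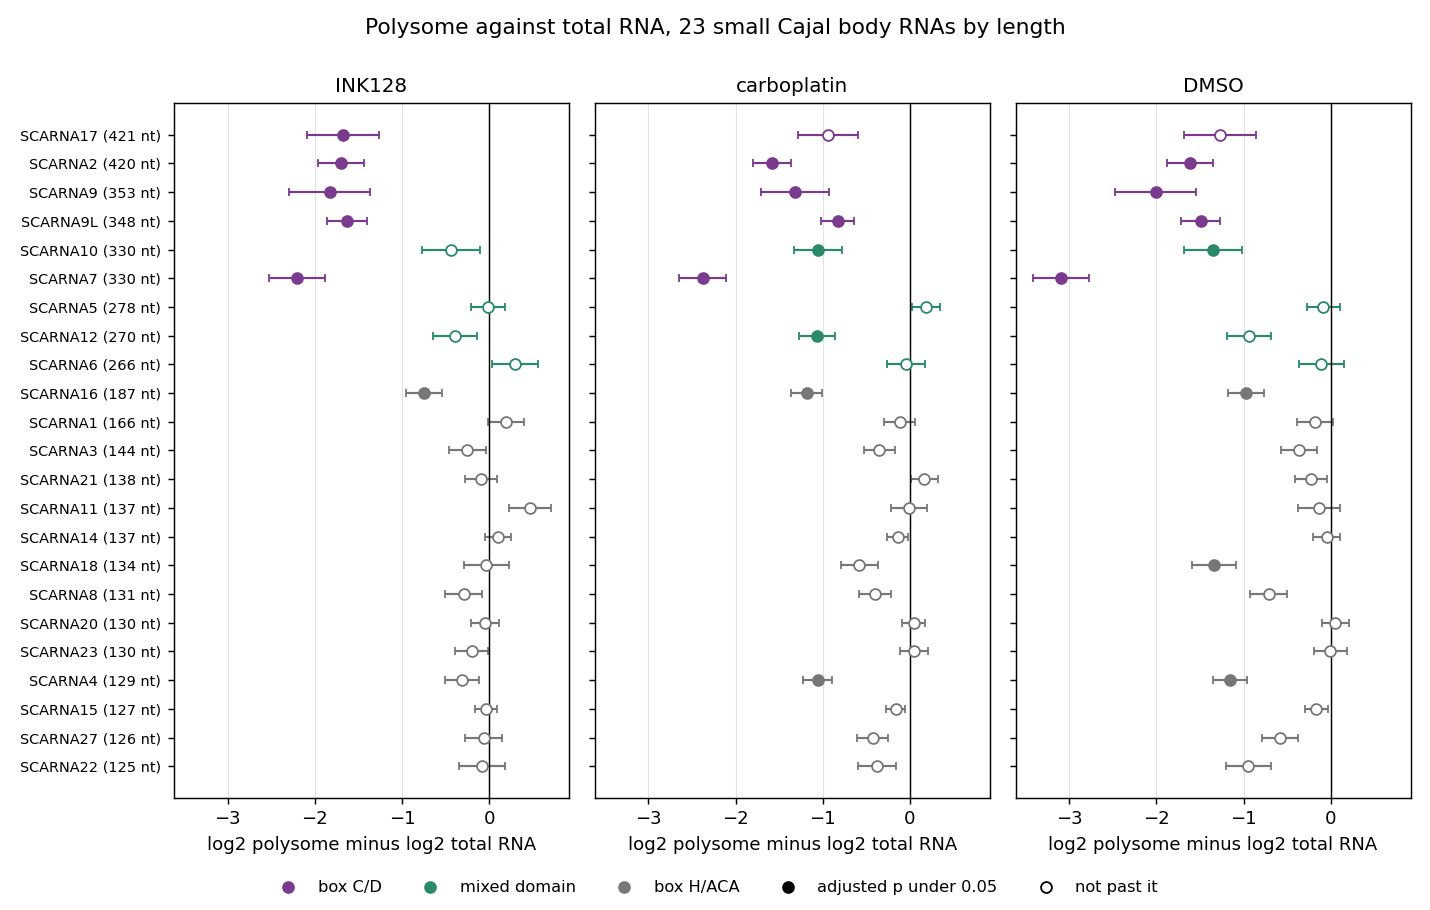
Polysome minus total RNA log2 difference of the 23 scaRNAs with INK128, carboplatin and DMSO, ordered from the longest at the top to the shortest. Points are limma estimates with bars of 1 SE, colours are box classes, and filled points passed an adjusted p under 0.05. All 5 box C/D RNAs sit left of 0 in every panel, between -0.83 and -3.09.

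The 13 scaRNAs that passed under no condition in the main fit were SCARNA5 and SCARNA6 and 11 box H/ACA RNAs. The lowest of them with DMSO were SCARNA22, within NSD2, at -0.95 ± 0.26 (SE, adjusted p = 0.0633), SCARNA8, a guide for U2 within HAUS6, at -0.71 ± 0.21 (adjusted p = 0.0791) and SCARNA27 at -0.58 ± 0.21 (adjusted p = 0.133). For these 3 no DMSO polysome array reached a DMSO total RNA array. With the 4 arrays in conflict moved and the datasets' pairs as the block, 2 of them passed with carboplatin. These were SCARNA8 at -0.56 (limma, adjusted p = 0.0392) and SCARNA27 at -0.50 (adjusted p = 0.0302), while SCARNA22 did not pass (adjusted p = 0.0595). The 4 highest values among the members with INK128 were 0.47 for SCARNA11, 0.30 for SCARNA6, 0.19 for SCARNA1 and 0.10 for SCARNA14, with adjusted p between 0.249 and 0.736. In DMSO they were SCARNA20 at 0.05, SCARNA23 at -0.00408, SCARNA14 at -0.05 and SCARNA5 at -0.08, with adjusted p between 0.878 and 0.994. A p that misses the threshold does not show equal levels.

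Whether INK128 changed the distribution of a scaRNA between the fractions was tested as the INK128 difference minus the DMSO difference. It was called for 0 of 23 scaRNAs and 0 of 14884 genes (limma). At an unadjusted p under 0.05, where 1.15% of all genes were higher and 1.14% lower, 0 scaRNAs were lower and 3 higher. These were SCARNA18 at 1.31 ± 0.36 (SE), SCARNA4 at 0.84 ± 0.28 and SCARNA22 at 0.86 ± 0.37, each with an adjusted p of 1. SCARNA7 differed by 0.89 ± 0.45 (adjusted p = 1). The same contrast for carboplatin was also called for 0 scaRNAs and 0 genes, and the lowest p before adjustment were those of SCARNA18 at 0.76 ± 0.33 and SCARNA9L at 0.66 ± 0.29 (adjusted p = 1 for both). A scaRNA that passed under one condition and missed under another is therefore not shown to differ between them.

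Length, box class and signal went together among the members. Of the 9 scaRNAs longer than 200 nucleotides, which were the box C/D and mixed-domain RNAs, 5 were lower on polysomes with INK128, 6 with carboplatin and 5 with DMSO. Among the 14 shorter ones, all box H/ACA RNAs, it was 1, 2 and 3. Their median differences were -1.63, -1.05 and -1.35 for the longer and -0.07, -0.26 and -0.30 for the shorter RNAs. Across the 23, length and difference had Pearson's r of -0.78 with INK128 and -0.62 with DMSO (Spearman's rho -0.54 and -0.51). The mean total RNA signal and the difference had r of -0.54 and -0.62, and length and that signal had r of 0.48. These points share the same arrays and are given as a description. RNA of the gradient fractions was purified on silica columns, which are made to retain RNA longer than 200 nucleotides. For total RNA the study names a protocol of the same maker but no kit. Of the 23 members, 17 had a mean signal below the median named gene (6.54). The part of column retention and of low signal in these values was not tested.

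In RefSeq 22 of the 23 scaRNAs lie in the span of another gene, and for 13 of them that gene was measured. The table gives no strand, so that signal from a spliced-out intron or unspliced transcript of the spanning gene and signal from the scaRNA cannot be told apart. The scaRNA had a lower difference than its spanning gene in 9 of 13 pairs with INK128, 12 with carboplatin and 12 with DMSO. SCARNA7 was at -2.20 with INK128 and -3.09 with DMSO, against 0.29 and -0.05 for its spanning gene KPNA4, an importin (adjusted p = 0.275 and 0.905). SCARNA9 was at -1.83 and -2.01, against -0.15 and -0.67 for CEP295, which encodes a centrosome protein (adjusted p = 0.713 and 0.0875). SCARNA16 was at -0.74 and -0.98, against -0.61 (adjusted p = 0.0341) and -0.60 (adjusted p = 0.0621) for SNHG20, a non-coding host gene that was thus itself lower on INK128 polysomes. The exception with DMSO was SCARNA14 at -0.05, whose spanning gene TIPIN was at -0.80 (adjusted p = 0.121).

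**Figure D3:**
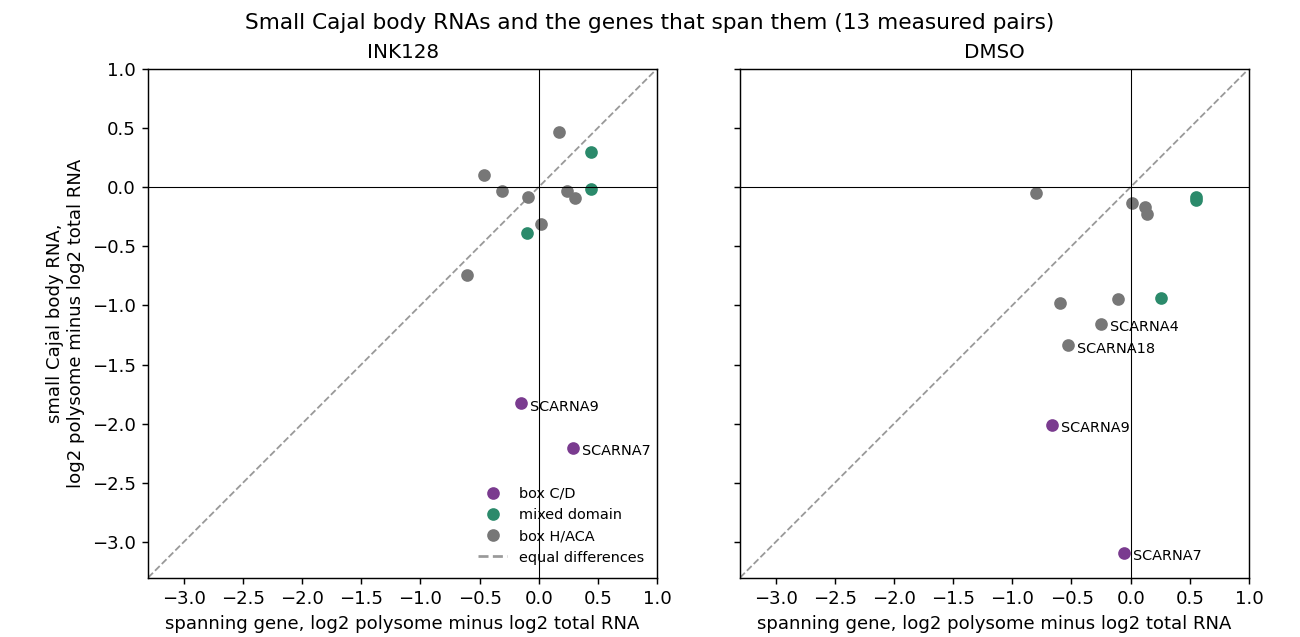
Polysome minus total RNA log2 difference of 13 scaRNAs (vertical axis) against that of the measured gene in whose span each lies (horizontal axis), with INK128 left and DMSO right. Colours are box classes and the dashed line marks equal differences. SCARNA7, at -2.20 and -3.09, lies far below the line, with its spanning gene KPNA4 at 0.29 and -0.05.

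Treatment effects on polysome RNA were few. The comparisons of the combination, INK128 and carboplatin with DMSO share the same 3 DMSO polysome arrays. SCARNA7 was higher on polysomes of INK128-treated cells, at 6.63, 7.30 and 6.68, against 6.04, 5.90 and 5.75 in DMSO-treated cells, and the groups did not overlap. The log2 difference was 0.97 ± 0.24 (SE, adjusted p = 0.0368). It was the only one of 23 scaRNAs to pass, where 2.25% of all genes were higher and 1.75% lower. Leaving out any 1 of the 6 arrays ended the call (adjusted p between 0.0525 and 0.182), as did centring the arrays on their medians (0.96, adjusted p = 0.0588). The next by p were SCARNA16 at 0.33 (adjusted p = 0.176), SCARNA11 at 0.53 (0.245) and SCARNA10 at 0.67 (0.28), and below 0 SCARNA9L at -0.25 (0.479), SCARNA8 at -0.25 (0.518), SCARNA21 at -0.07 (0.9) and SCARNA15 at -0.04 (0.915).

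With the combination SCARNA4 was the scaRNA that passed, at 6.55, 6.29 and 6.77 on combination polysomes, against 5.81, 6.04 and 6.04 on DMSO polysomes. These groups did not overlap either. The difference was 0.57 ± 0.16 (SE, adjusted p = 0.0483), with 2.46% of all genes higher and 3.96% lower. The adjusted p rose above 0.05 in 5 of the 6 runs that left out 1 of these arrays, the exception being combination polysome 2, and with 7 of 10 other settings. SCARNA17 had the lowest p below 0, at -0.49 ± 0.20 (adjusted p = 0.158), followed by SCARNA9L at -0.27, SCARNA8 at -0.23 and SCARNA27 at -0.13 (adjusted p between 0.328 and 0.666). Above 0 SCARNA5 was at 0.33 (adjusted p = 0.257) and SCARNA16 at 0.15 (adjusted p = 0.5). SCARNA7 was at 0.40 ± 0.24 (adjusted p = 0.318), with combination polysome values of 6.72, 6.53 and 5.67, of which the last lay below all 3 DMSO values. Against INK128 polysomes the combination had 0 of 23 scaRNAs and 0 of 14884 genes called, with SCARNA17 at -0.49 and SCARNA7 at -0.56 (adjusted p = 0.921 for both).

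Carboplatin alone had 0 scaRNAs and 0 genes called against DMSO in polysome RNA. At an unadjusted p under 0.05, 1.28% of all genes were lower and 1.94% higher. In that setting 1 scaRNA was lower, SCARNA17 at -0.42 ± 0.19 (SE, adjusted p = 1). The next below 0 were SCARNA9 at -0.40, SCARNA7 at -0.21 and SCARNA16 at -0.08, and above 0 SCARNA4 at 0.25, SCARNA21 at 0.22, SCARNA27 at 0.20 and SCARNA18 at 0.30, all with an adjusted p of 1. In total RNA it also had 0 called, with SCARNA7 at -0.92 ± 0.32, SCARNA9L at -0.70 ± 0.25 and SCARNA18 at -0.46 ± 0.20, each with an adjusted p of 0.969. INK128 in total RNA had 0 scaRNAs called, where 0.0605% of all genes were lower and 0.0672% higher. SCARNA18 came nearest at -1.11 ± 0.22 (adjusted p = 0.0909), with 3.70 and 3.50 in INK128 total RNA, against 4.58 and 4.84 in DMSO total RNA. SCARNA22 followed at -0.74 ± 0.20 (adjusted p = 0.183), SCARNA8 at -0.67 ± 0.25 (adjusted p = 0.332) and SCARNA4 at -0.56 ± 0.23 (adjusted p = 0.38). Of the 23 scaRNAs, 16 had values below 0 and 7 above. Among values above 0 the lowest p was that of SCARNA5 at 0.22 (adjusted p = 0.76).

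**Figure D4:**
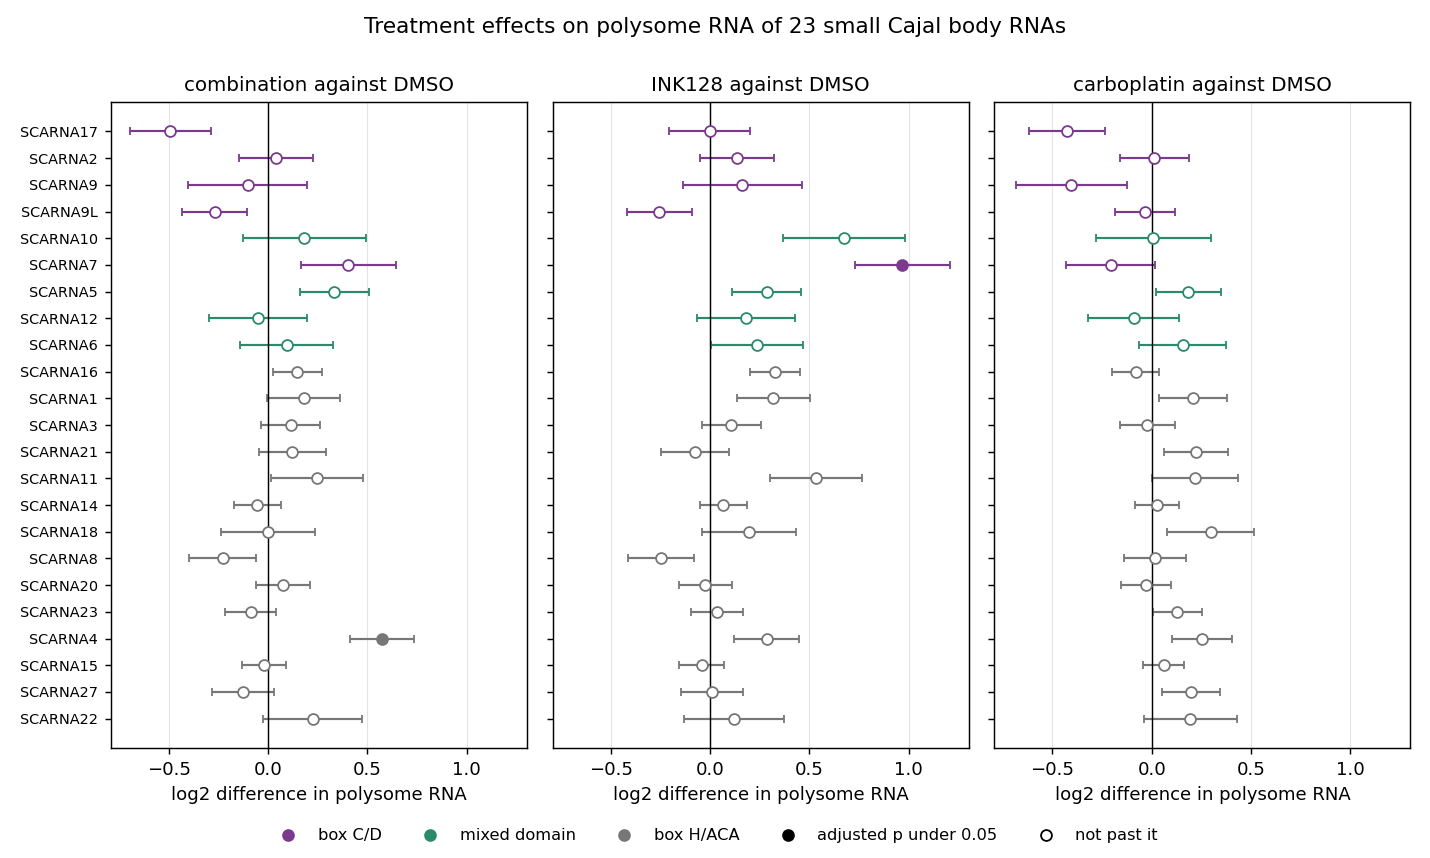
Log2 difference in polysome RNA between treated and DMSO-treated cells for the 23 scaRNAs, ordered by length, with the combination, INK128 and carboplatin in separate panels. Points are limma estimates with bars of 1 SE, colours are box classes and filled points passed an adjusted p under 0.05. Filled are SCARNA4 with the combination (0.57) and SCARNA7 with INK128 (0.97).

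Total RNA of the combination can be used only where the 4 arrays in conflict take the condition of the datasets, a setting added after the values had been seen. Polysome RNA was then lower than total RNA for 10 of 23 scaRNAs in the combination and higher for 0, while 10.3% of all genes were lower and 10.8% higher. SCARNA7 differed by -3.00 ± 0.30 (SE, adjusted p = 4.99e-06), SCARNA9 by -2.70 ± 0.47 (adjusted p = 0.000659) and SCARNA17 by -2.18 ± 0.39 (adjusted p = 0.00088). The SCARNA7 signal on the 4 arrays was 9.06 on the array labelled carboplatin polysome 1, 9.55 on carboplatin total 1, 5.77 on combination total 1 and 8.21 on combination total 2. Among the arrays used, polysome arrays held 5.53 to 7.30 and total RNA arrays 7.96 to 9.63. Combination total 1 and carboplatin polysome 1, as labelled, thus lay in the range of the other fraction, and this gene was read after the mismatch had been found from all probesets of the datasets.

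Transcripts of the protein partners were measured on the same arrays. Of the 6 measured core proteins of the particles, 0 passed between polysome and total RNA in either direction under any of the 3 conditions. Between 0.712% and 9.33% of all genes passed per condition and direction. The medians of the 6 were -0.23 with INK128, -0.02 with carboplatin and -0.10 with DMSO. FBL, the methyltransferase of box C/D particles, was lower in combination polysomes than in DMSO polysomes at -0.47 ± 0.13 (SE, adjusted p = 0.0483), and NOP58, its partner, was at -0.72 ± 0.22 (adjusted p = 0.0656). FBL was the only 1 of the 6 to pass in that comparison, in which 3.96% of all genes were lower. Of 13 measured assembly and modification factors, RUVBL2, an ATPase that assembles the particles, was higher on polysomes with INK128 at 0.87 ± 0.22 (adjusted p = 0.027) and with carboplatin at 0.75 ± 0.18 (adjusted p = 0.0132). RUVBL1, its partner, was higher with carboplatin at 0.49 ± 0.15 (adjusted p = 0.0331) and lower in combination polysomes than in DMSO polysomes at -0.56 ± 0.15 (adjusted p = 0.0394). Of the 13, 1 was thus higher with INK128 and 2 with carboplatin, beside 4.07% and 9.33% of all genes. In the combination against DMSO 1 of the 13 was lower, beside 3.96% of all genes.

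Non-coding host genes of small nucleolar RNAs, which carry the guide RNAs in their introns and yield no known protein, were also measured. Of 11 measured, 8 passed with INK128, 8 with carboplatin and 3 with DMSO, 0 were higher, and all 11 had values below 0 under each condition. Among all genes 3.3%, 3.58% and 0.961% passed as lower in that order, and 41.5%, 42.5% and 42.5% had values below 0. GAS5 differed by -1.79 ± 0.25 (SE, adjusted p = 0.00299), -1.68 ± 0.21 (adjusted p = 0.000808) and -1.10 ± 0.25 (adjusted p = 0.0381) in that order. ZFAS1 was at -1.40 (adjusted p = 0.0142), -1.24 (adjusted p = 0.00436) and -0.94 (adjusted p = 0.0809), and SNHG15 at -1.11 (adjusted p = 0.0242), -1.20 (adjusted p = 0.00381) and -1.13 (adjusted p = 0.0437).

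Other small RNAs with no protein product were measured on the same arrays. Of 7 (RMRP, RPPH1, TERC and 4 vault RNAs), 0 passed with INK128, 4 with carboplatin and 0 with DMSO, all 4 of them lower on polysomes. RPPH1, the RNA of ribonuclease P, was at -0.58 (adjusted p = 0.195) with INK128, -1.49 (adjusted p = 0.0017) with carboplatin and -1.04 (adjusted p = 0.0567) with DMSO. RMRP, the RNA of the related ribonuclease MRP, was at -0.46 (adjusted p = 0.581), -1.57 (adjusted p = 0.0121) and -1.37 (adjusted p = 0.105). The 1072 microRNA genes had medians of 0.00196, -0.00782 and 0.03, with 9, 32 and 3 lower and 10, 19 and 3 higher. Beside both lists, 3.3%, 3.58% and 0.961% of all genes were lower, and 4.07%, 9.33% and 0.712% were higher. Of 15 small nucleolar RNAs of pre-ribosomal RNA cleavage looked for, 0 were named in the platform table.

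The genes whose signal followed the mean of the 23 scaRNAs most closely over the 20 arrays were CHASERR (Pearson's r = 0.91), SNHG5 (0.90), TMEM44-AS1 (0.90), CCDC91 (0.90) and CREBL2 (0.90), out of 14861 other genes. CHASERR, SNHG5 and TMEM44-AS1 are non-coding RNAs. Their polysome minus total RNA differences were -1.43, -1.39 and -1.42 with INK128 and -1.46, -1.13 and -1.12 with DMSO. CREBL2 was at -1.05 and -1.16 and CCDC91 at -0.53 and -0.81. The arrays fall into 2 fractions, so this likeness mostly ranks genes by how far the fractions lay apart.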

How the data were processed

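The authors processed the arrays with GCCN and SST transformation, RMA background correction and quantile normalization in Expression Console 1.4.1, and deposited log2 signals per probeset. Of 53617 probesets 16098 had a symbol in the platform table, and the probeset with the highest mean was kept per symbol (14884 genes, no filter on low signal). Groups were fitted in limma 3.58.1 (R 4.3.3), with p-values adjusted over all 14884 genes (Benjamini-Hochberg, threshold 0.05). Polysome against total RNA and its change with treatment came from 1 fit of the 20 arrays in 7 groups. Treatments were compared within polysome RNA and within total RNA. The conditions of 4 arrays were contradicted by the datasets of the study, whose 527 or 676 values equalled those arrays within 0.0001 (at most 0.38% for any other array). The datasets' values served only to match arrays. Per the study's methods, total RNA was taken from the lysates that were sedimented. The datasets pair 5 polysome arrays with total RNA arrays of the arrays used, 2 with DMSO and 3 with carboplatin. The deviations of these pairs from their group means had r between 0.01 and 0.36. The main fits held no block for pairs. Pairs were fitted as a block only in an alternative run, with the 4 arrays in conflict moved.

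Members, gene lists, box classes and alternatives were chosen with earlier results of these data known. Named were, between fractions with DMSO and INK128, the 8 lowest and 4 highest among members that passed (among all members where fewer did). In each treatment comparison 4 or fewer with the lowest p in a direction were named. Added were members with the highest signal in total RNA, 3 genes with the lowest p per related list, and 5 genes most alike. Alternatives covered array assignment, centring, quantile normalization per fraction, variance model, fitted groups, blocks, filters, probeset choice and each array left out. The fits were tested on simulated data with known changes. No scaRNA sequence was used here.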

Additional observations from a re-analysis of the deposited data

Results flagged for a closer look

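In the carboplatin polysome group the SCARNA9 signal of replicate 3, 3.31, stood apart from the other 3 arrays, which lay between 2.59 and 2.71. Its gap to the nearest array was 0.84 of the group's whole range. Of 23 groups of 4 arrays examined in this way, 1 per scaRNA, this was the 1 that stood out, and chance gives about 1 in 20. The array is still below the 3 carboplatin total RNA arrays, of which the lowest was 3.52.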

How the results depend on the processing

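No scaRNA that passed changed direction under any alternative run. With all 24 arrays as labelled, 0 scaRNAs passed in any comparison. With the 4 arrays in conflict moved to the datasets' conditions, 0 passed in the combination against DMSO and 1, which was lower, in INK128 against DMSO total RNA. With only genes at or above the median level, 6 scaRNAs remained, and 5 of them passed between polysome and total RNA in DMSO. Of these 6, 3 had passed in the main fit. In that comparison 1 scaRNA passed when only the groups compared were fitted, and 2 to 11 when 1 array was left out. It was 2 without DMSO total 1 or 2 (4 and 6 genes in all, against 249) and 4 without DMSO polysome 2 or 3 (19 genes each). In INK128 it was 3 with only the groups compared and 3 to 6 with 1 array left out, the 3 arising without INK128 polysome 1, 2 or 3 (276, 34 and 48 genes, against 1097). In carboplatin it was 4 without the coded arrays and 7 to 9 with 1 array left out. Among the 6 scaRNAs at or above the median level it was 4 in carboplatin, as many of these as in the main fit. A lone remaining array is assumed to vary like the other groups. The cause was not tested, apart from the smaller number of arrays or members.

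INK128 against DMSO in polysome RNA had 0 with median centring and 0 to 1 with 1 array left out. The combination against DMSO had 0 with centring, quantile normalization per fraction, only the groups compared or all named probesets, and 0 to 1 with 1 array left out. It also had 0 with the median filter, but that filter removed SCARNA4 (mean 6.51, against 6.54 for the median gene). The filter is therefore no test of the SCARNA4 call. The labelled replicate numbers do not follow the pairs of arrays in the study's datasets, which set DMSO polysome 3 beside DMSO total 2. With DMSO the deviations of same-numbered arrays had r of 0.03 and -0.02, and with INK128 0.16 and 0.17. With a replicate block, 6 scaRNAs passed in DMSO (79 genes against 249), 6 in INK128 (625 against 1097), 8 in carboplatin, 1 in INK128 against DMSO polysome RNA and 0 in the combination against DMSO. With the datasets' pairs as the block, and the 4 arrays in conflict moved, 6 passed in DMSO (19 genes against 249) and 11 in carboplatin (3115 against 1922), while INK128 had no pair there. Signals near the floor limit what can be seen for members such as SCARNA15 (mean 2.59), since RMA gives no detection call.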

Other observations

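Other small nucleolar RNAs were reached through names that the study's datasets give to probesets without a symbol in the platform table. The study chose these probesets from carboplatin and combination values, and INK128 arrays are not in those datasets, so they are described here with INK128 alone and with no test. There were 27 probesets of 23 symbols, but the 2 of SNORA59A and the 4 of SNORA38 held identical values. Each of these copies enters the counts below, so the counts overstate the number of distinct RNAs. In INK128-treated cells 21 of the 27 had a lower mean on polysomes than in total RNA, with a median difference of -0.52 against 0.00493 for all probesets. For 13 every polysome array lay below every total RNA array and for 1 above, where the first held for 19.2% of all probesets. The shares of all probesets with a lower mean, or with every polysome array above, are not given here.

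The lowest was SNORD41, a box C/D RNA, at 4.08 on polysomes and 7.65 in total RNA, a difference of -3.58. SNORD71 stood at 3.91 on polysomes and 6.52 in total RNA (-2.62), SNORA9, a box H/ACA RNA, at 4.13 and 6.06 (-1.93), and SNORD3C, a copy of the U3 RNA of ribosomal RNA processing, at 9.27 and 11.2 (-1.89). Values above 0 were smaller, the highest being 0.46 for SNORA70G and 0.44 for SNORD114-1. Copies of U3 share their sequence, so the SNORD3C value may hold signal of its copies.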
